A study of Mus musculus with 4 samples.

Results

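Stromal and endothelial marker genes were followed across 4 samples of sorted mouse small intestinal cells. The set was named gene by gene: Acta2, Actg2, Tagln and Myl9 for smooth muscle and myofibroblasts, Vim, Col1a1, Col3a1 and Sparc for fibroblasts and matrix, and Flt1 and Pecam1 for endothelium. Of these 10 genes, 9 had a probe on the array, each with a single probe, out of 16390 genes named there. Myl9 was not analysed here. An array in this series is a 1-colour (Cy5) oligonucleotide array, and its measurement is the brightness of a spot.

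Each group was 1 array. Dclk1- tumor cells came from the intestinal tumors of 1 male Dclk1CreERT2/+; ApcMin/+ mouse aged 17 weeks, and Dclk1+ tumor cells from the tumors of 7 pooled male mice of the same genotype, aged more than 16 weeks. Dclk1- normal cells came from the small intestine of 1 male Dclk1CreERT2/+ mouse, and Dclk1+ normal cells from 2 pooled male mice of that genotype, all aged 26 weeks. Every mouse, those of the normal groups included, carried the Dclk1CreERT2 allele, in which a tamoxifen-activated recombinase is tied to Dclk1, a kinase gene that marks tuft cells, the rare chemosensory cells of the gut lining. ApcMin is a truncating allele of Apc that gives rise to Wnt-driven adenomas. Per the labels' protocols, tissue was digested with collagenase and DNase, and Dclk1+ tumor cells were sorted by GFP. The sources used here give neither the GFP allele, nor the gates of the other 3 samples, nor any depletion of stromal or blood cells. Tumor and normal mice differed in age as well as in the ApcMin allele, and these cannot be told apart from the tissue.

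As background, the lining of the small intestine is an epithelium that rests on a lamina propria of fibroblasts, myofibroblasts, capillaries and immune cells, with muscle layers beneath. Fibroblasts secrete collagens and matrix-binding proteins, smooth muscle cells and myofibroblasts carry their own actin and actin-binding proteins, and endothelial cells carry receptors for vascular growth factors. Epithelial cells are expected to hold little of these transcripts, so that such markers are commonly read in sorted epithelium as a sign of other cells.

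With 1 array per group nothing could be tested. Every difference given here lies between 2 arrays and could not be set against a spread between animals. In bulk RNA of this kind, fewer cells of a type and less RNA per cell cannot be told apart. Levels are normalised intensities from the table that the authors deposited, on a linear scale and without a stated unit, where a probe too dim to be listed has no value. Differences are log2 differences from a separate normalisation of the spots, whose offset of 50 pulls dim signals together, so that they understate changes of dim genes. A gene was compared where either array of the pair had it above background, meaning brighter than the mean of that array's blank spots plus 2 SD, and was called at 2-fold or more, a log2 difference of 1.

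Between 63.3% and 70.9% of the 23473 probes on an array were above background. Dclk1 itself stood at 9.49 (Dclk1-) and 61.8 (Dclk1+) in tumor and 179.8 (Dclk1-) and 736 (Dclk1+) in normal cells, brighter on the Dclk1+ array of each pair. The authors' values are not level between arrays: over all genes compared, their median log2 difference was -0.40 for tumor against normal in Dclk1+ cells and -0.50 in Dclk1- cells. The median gene thus has a lower listed level on the tumor arrays than on the normal ones, while the log2 differences are nearly centred, with medians over all genes between -0.03 and 0.01.

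Promoter sequences are shown for the 3 genes that were called in a comparison, Acta2, Vim and Flt1, so that the motifs in the sequence before their starts can be seen next to their levels. RefSeq (GRCm38.p6) promoter entries matched 6 of the 10 genes. The missing ones were Actg2, Tagln, Col1a1 and Pecam1. Each sequence is the 250 bases before the transcription start, written 5′ to 3′ on the strand of the gene, and the capitals mark the motifs that were searched on both strands: the CArG box, bound by serum response factor in smooth muscle genes, exact and with at most 1 letter off, the TATA motif TATAAA, and the cAMP response element TGACGTCA. The Acta2 stretch is chr19:34255374-34255623 (minus strand), the Vim stretch is chr2:13574061-13574310 (plus strand) and the Flt1 stretch is chr5:147726012-147726261 (minus strand).
Acta2: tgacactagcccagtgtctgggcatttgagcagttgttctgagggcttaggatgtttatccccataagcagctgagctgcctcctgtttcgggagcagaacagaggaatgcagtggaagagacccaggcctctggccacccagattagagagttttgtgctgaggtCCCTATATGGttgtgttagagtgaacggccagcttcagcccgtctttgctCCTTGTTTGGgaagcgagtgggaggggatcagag
Vim: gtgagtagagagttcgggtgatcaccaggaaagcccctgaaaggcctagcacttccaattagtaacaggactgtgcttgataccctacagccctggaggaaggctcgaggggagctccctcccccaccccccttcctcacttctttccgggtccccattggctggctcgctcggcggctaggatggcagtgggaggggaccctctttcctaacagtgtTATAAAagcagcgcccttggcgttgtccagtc
Flt1: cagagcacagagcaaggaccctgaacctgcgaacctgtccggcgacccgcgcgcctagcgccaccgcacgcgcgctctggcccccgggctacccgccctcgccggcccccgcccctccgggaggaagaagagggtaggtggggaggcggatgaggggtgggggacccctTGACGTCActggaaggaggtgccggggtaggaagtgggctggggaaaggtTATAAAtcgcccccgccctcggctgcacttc

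The Acta2 promoter held no exact CArG box and held 2 with at most 1 letter off, CCCTATATGG from 84 to 75 bases before the start and CCTTGTTTGG from 34 to 25 bases before it. An exact box was present in 1.47% of the 32851 promoter entries and a box with at most 1 letter off in 18.6% of them, over the same length. Myl9, which could not be measured, held the exact box CCTAATAAGG from 161 to 152 bases before its start. Vim and Flt1 each held TATAAA, 32 to 27 and 31 to 26 bases before the start, a motif found in 12.4% of entries, and Flt1 also held TGACGTCA from 81 to 74 bases before the start, found in 1.55%. Apart from the exact CArG box, the motifs were chosen after the sequences had been seen, and a match is a run of letters, not a measured binding site.

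Of the smooth muscle genes, Acta2 encodes the alpha smooth muscle actin of myofibroblasts and vascular and visceral muscle. Its normalised intensity in tumor was 191.2 (Dclk1-) and 119 (Dclk1+), and it was not listed on either normal array. It was thus above background on both tumor arrays and on neither normal array, a pattern shown by 1.06% of all genes. Actg2, the gamma actin of enteric smooth muscle, stood at 18.7 (Dclk1-) and 10.5 (Dclk1+) in tumor and 11.3 (Dclk1-) and 6.52 (Dclk1+) in normal cells. Its levels were low throughout, and the tumor and normal arrays overlapped. Tagln, which encodes the actin-binding protein transgelin, was not well above background on any of the 4 arrays.

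Among the fibroblast and matrix genes, Vim, the intermediate filament of mesenchymal cells and also of leukocytes and endothelium, stood at 343 (Dclk1-) and 92.5 (Dclk1+) in tumor and 15.2 (Dclk1-) and 22.2 (Dclk1+) in normal cells. The Dclk1- tumor array was the highest by far, and both tumor arrays were above both normal arrays. Col3a1, a fibrillar collagen of soft tissue, stood at 64.0 (Dclk1-) and 21.4 (Dclk1+) in tumor and 12.3 (Dclk1-) and 14.3 (Dclk1+) in normal cells. It was again highest in Dclk1- tumor cells, with the other 3 arrays closer together.

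Sparc, a collagen-binding matrix protein, was dim, at 14.6 (Dclk1-) and 11.2 (Dclk1+) in tumor and 2.76 (Dclk1-) and 9.50 (Dclk1+) in normal cells, and its spot in Dclk1- normal cells was not above background by the blank spots. Col1a1, the main chain of type I collagen, was at the edge of detection, not listed for the Dclk1- and at 2.81 for the Dclk1+ tumor sample, with 3.10 (Dclk1-) and 4.65 (Dclk1+) in normal cells. The tumor arrays were therefore not the higher ones for this collagen.

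The endothelial genes differed from each other. Flt1, which encodes a receptor for vascular endothelial growth factor and is also carried by monocytes, stood at 188.2 (Dclk1-) and 140.2 (Dclk1+) in tumor and 11.7 (Dclk1-) and 21.5 (Dclk1+) in normal cells. Both tumor arrays were above both normal arrays, as for Vim. How many of all genes share this order was not counted. Pecam1 (CD31), the junction protein by which endothelium is usually recognised, was not well above background on any array, its spots lying no more than 0.70 SD over the blank mean. In all, 7 of the 9 genes were above background somewhere and 4 (Actg2, Vim, Col3a1 and Flt1) on every array, the latter a pattern shown by 58.8% of all genes. By array, 6 (Dclk1-) and 7 (Dclk1+) were above background in tumor and 5 (Dclk1-) and 6 (Dclk1+) in normal cells.

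**Figure D1:**
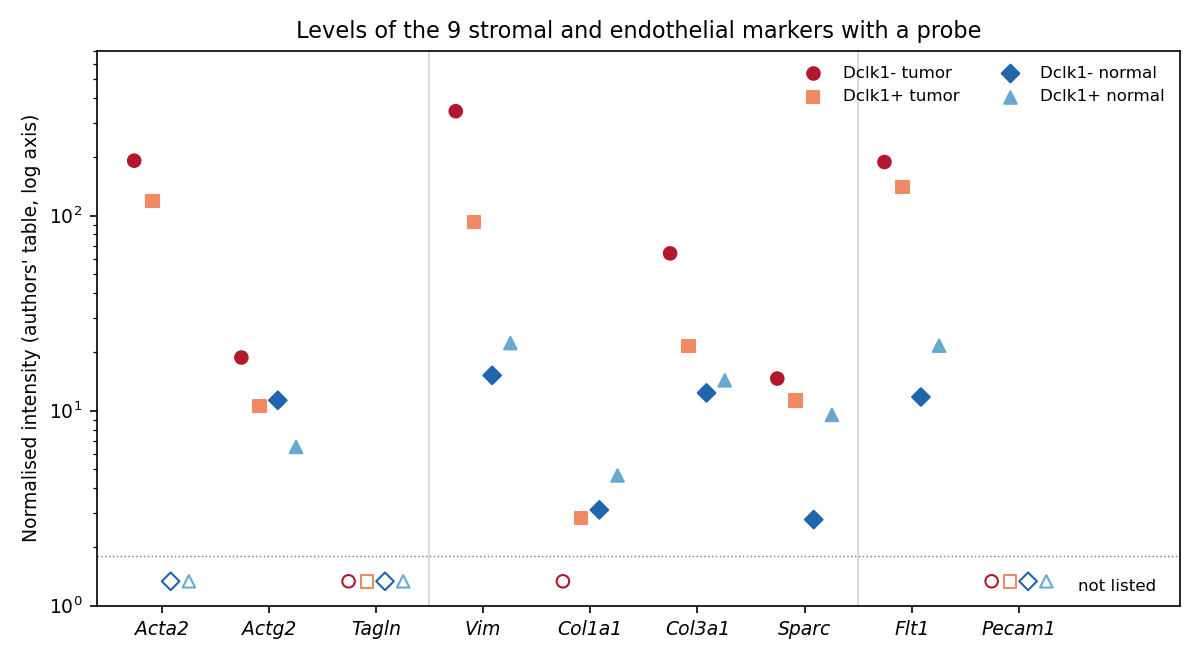
Normalised intensity (authors' table, log axis) of the 9 marker genes with a probe, 1 point per array, with the smooth muscle, fibroblast and endothelial genes separated by grey lines. Open symbols at the bottom are probes not listed. Acta2, Vim, Flt1, Col3a1 and Sparc were higher on both tumor arrays than on both normal arrays, while Tagln and Pecam1 were listed on none. In Dclk1+ cells the margin was small for Sparc (11.2 against 9.50) and Col3a1 (21.4 against 14.3). The share of all genes with this order was not counted.

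Tumor was first set against normal within the Dclk1- cells, the pair of arrays with the widest differences in these genes. Vim was higher in tumor by a log2 difference of 2.50, Acta2 by 2.03 and Flt1 by 1.83. As Acta2 was not above background in normal cells, its difference is a bound, at least 4.01-fold, taken against the dimmest probe above background there. Col3a1 (0.81), Sparc (0.28) and Actg2 (0.20) were under 2-fold, and Col1a1 was level (-0.02).

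Of the 7 genes compared, 3 were at least 2-fold higher in Dclk1- tumor than in Dclk1- normal cells, where 5.83% of the 12340 genes compared were higher by the same rule. None was at least 2-fold lower (0 of 7, against 5.24% of all genes, with 11.1% apart in either direction), with 2 members not above background on either array. The median over the 7 was 0.81, against -0.02 over all genes. Other treatments of the background changed these values. Sparc and Col3a1 were past 2-fold with the authors' values (2.40 and 2.38), while with each spot's local background taken into account Flt1 was at 0.97 and Col3a1 at 0.07.

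The local background lay close under some of these spots, as it did under most probes. On the Dclk1- tumor array the median ratio of local background to spot was 0.76 over all probes. The 2 also rose together there, with a correlation of 0.98 on the log scale. In Dclk1- tumor cells the Col3a1 spot had an intensity of 87.7 over a local background of 78.9, and the Flt1 spot 213 over 154.6. The spots of Acta2 (216 over 58.1) and Vim (370 over 102.1) stood well clear of theirs. For Vim and Acta2 the difference between Dclk1- tumor and Dclk1- normal cells was as large with the local background as without it, at 2.52 and 2.05.

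Within the Dclk1+ cells the same genes were higher in tumor, by less. Acta2 was at 1.41, at least 2.63-fold, and Flt1 at 1.23, while Vim was at 0.88 and under 2-fold. Col3a1 (0.15), Actg2 (0.10) and Sparc (0.06) were close to level, and Col1a1 was at -0.02. Of 7 genes compared, 2 were at least 2-fold higher, against 4.27% of the 12869 genes compared, and 0 were lower, against 4.2%, with 8.46% of all genes apart in either direction. The median over the 7 was 0.15, against -0.03 over all genes. With an offset of 16 in place of 50, Vim passed 2-fold as well (1.42), and with the local background Flt1 did not (0.68).

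**Figure D2:**
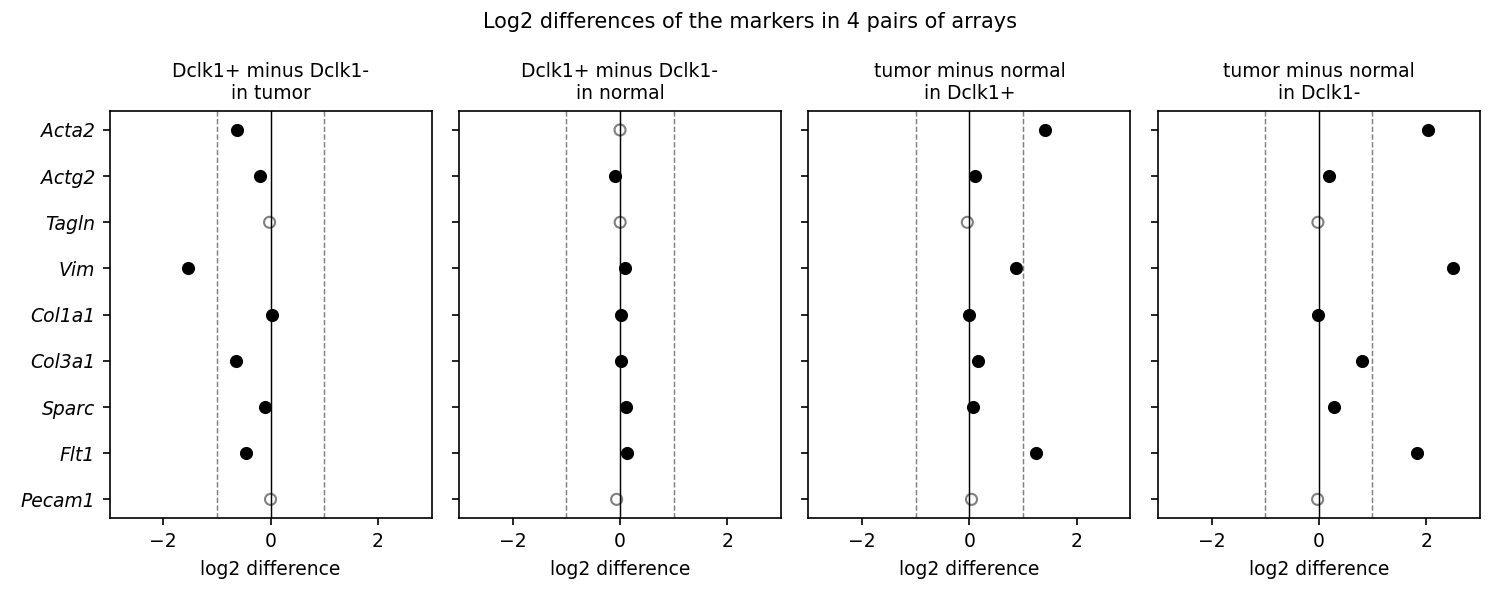
Log2 difference of each marker gene between the 2 arrays of a comparison, 1 panel per comparison. Dashed lines mark 2-fold, and open circles are genes not above background on either array. The points past 2-fold are Vim, lower in Dclk1+ tumor cells, Acta2 and Flt1 in both comparisons of tumor with normal, and Vim in that of the Dclk1- cells.

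Between the tumor samples, 6 of the 7 genes compared were dimmer in the Dclk1+ cells, Col1a1 (0.02) being the exception. Vim was lower by a log2 difference of -1.54, and Col3a1 (-0.64), Acta2 (-0.62), Flt1 (-0.46), Actg2 (-0.20) and Sparc (-0.11) were on the same side but under 2-fold. Of 7 genes compared, 1 was at least 2-fold lower, against 2.13% of the 12197 genes compared, and 0 were higher, against 1.76%, with 3.89% of all genes apart in either direction. The median over the 7 was -0.46, against 0.01 over all genes. Col3a1 was past 2-fold with an offset of 16 (-1.08) and with the authors' values (-1.58), and was level with the local background (-0.00). Sparc turned to 0.02 when the arrays were scaled on their 75th percentile.

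Between the normal samples the members were close to level with the offset of 50. They were all dim there, at most 22.2 (Vim in Dclk1+ cells), so that with this offset a 2-fold difference could hardly appear. That the count below is 0 was thus largely set by the offset. Flt1 (0.14), Sparc (0.11) and Vim (0.09) were slightly brighter in Dclk1+ cells and Actg2 slightly dimmer (-0.10). Of 6 genes compared, 0 were 2-fold apart, against 5.66% of the 12844 genes compared for higher, 5.92% for lower and 11.6% for either, and the median over the 6 was 0.05, against 0.01 over all genes. Actg2 turned to 0.04 when the arrays were scaled on their 75th percentile, and Vim to -0.04 with the local background. Acta2 was not above background on either array and was not compared. Sparc was 1.78 higher in Dclk1+ normal cells with the authors' values, where its level in Dclk1- normal cells was close to the lowest value listed on that array (2.20). By the same values Flt1 (0.87), Col1a1 (0.59), Vim (0.55) and Col3a1 (0.21) were also higher in Dclk1+ normal cells, and Actg2 was lower (-0.79).

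The difference of Dclk1+ from Dclk1- cells was -1.54 in tumor and 0.09 in normal for Vim, -0.64 and 0.01 for Col3a1, and -0.46 and 0.14 for Flt1. In normal cells these genes were dim, and the offset held their differences near 0. These 2 comparisons share no array, but each rests on 1 pair, and whether they differ was not tested.

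**Figure D3:**
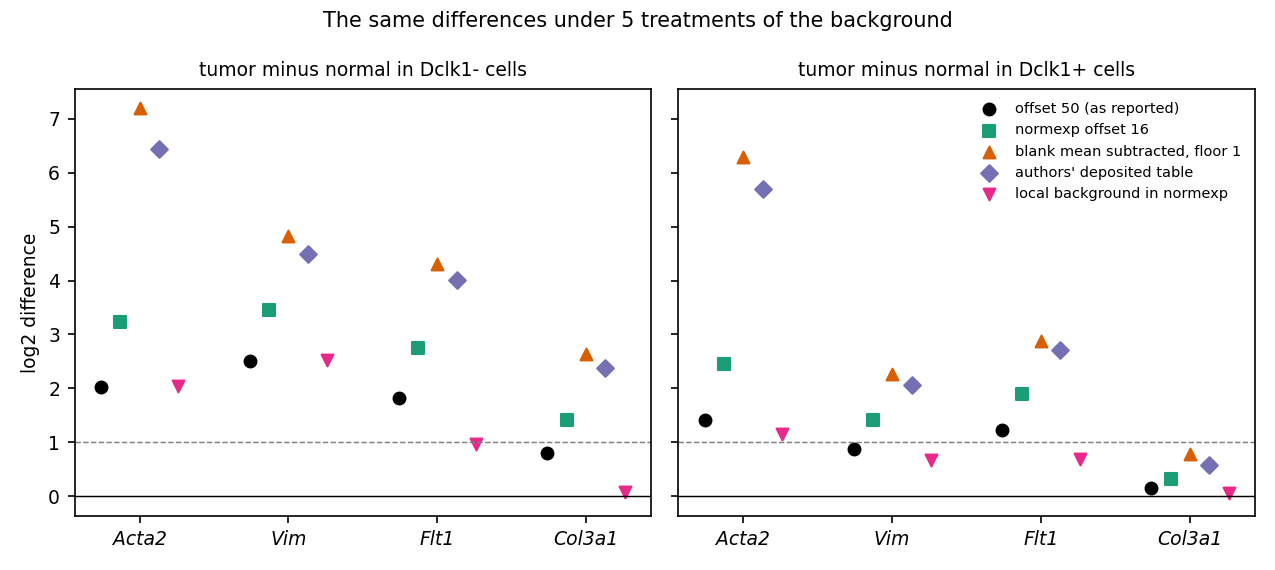
Log2 differences of Acta2, Vim, Flt1 and Col3a1 for tumor minus normal in Dclk1- cells (left) and Dclk1+ cells (right), under 5 treatments of the background. The dashed line marks 2-fold. All points lie above 0, from 0.07 (Col3a1 with the local background) to 7.19 (Acta2 with the blank mean subtracted) in Dclk1- cells, and Col3a1 is past 2-fold in Dclk1- cells under 3 of the 5 treatments.

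Wider lists of markers were then read on the same arrays. The fibroblast and matrix list held 32 genes with a probe, the members Vim, Col1a1, Col3a1 and Sparc among them. Its summed normalised intensity was 1488 (Dclk1-) and 846 (Dclk1+) in tumor and 241.9 (Dclk1-) and 186.5 (Dclk1+) in normal cells, highest on the tumor arrays. In Dclk1- cells 4 of 26 genes compared were at least 2-fold higher in tumor and 0 lower, against 5.83% and 5.24% of all genes, with a median of 0.23 against -0.02. Beside Vim these were Serping1, the C1 inhibitor of complement (2.63, 328 against 4.30), and Fstl1, a secreted follistatin-like protein (1.99, 210.8 against 9.77). The last was S100a4, a calcium-binding protein also found in leukocytes, which was at least 3.49-fold higher (161.7 in tumor). On the other side, 7 of the 26 genes lay below 0. Fbln1 stood at 3.22 in Dclk1- tumor against 48.2 in Dclk1- normal cells (-0.66), and Tgfbi at 41.0 against 83.7 (-0.38). The offset understates such differences of dim genes, so that the count of 0 lower says little for them.

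In Dclk1+ cells 3 of 24 fibroblast and matrix genes were at least 2-fold higher in tumor and 0 lower, against 4.27% and 4.2% of all genes, with a median of 0.07 against -0.03. They were Fstl1 (1.88; 223.8 against 9.47), Serping1 (1.33; 120.2 against 7.15) and Ccdc80, a secreted matrix protein (1.08; 85.3 against 5.64). Between the tumor samples 2 of 25 were lower in Dclk1+ cells, Vim and Serping1 (-1.26), and 0 were higher, against 2.13% and 1.76% of all genes, with a median of -0.11 against 0.01. Between the normal samples 0 of 20 were 2-fold apart, against 11.6% of all genes. For dim genes the offset held this count down. Tgfbi stood at 10.4 (Dclk1+) and 83.7 (Dclk1-) in normal cells, a log2 difference of -0.95. Fbln1 was not listed in Dclk1+ and stood at 48.2 in Dclk1- normal cells (-0.77), while 13 of the 20 genes lay above 0. Fstl1 was thus at similar levels in both tumor samples, while Serping1 and Vim were brighter in the Dclk1- one.

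Of the 32 fibroblast and matrix genes 4 were above background on both tumor arrays and on neither normal array, a pattern shown by 1.06% of all genes. These 4, named here after their values were seen, were Dcn, which encodes the matrix proteoglycan decorin, Pdgfra, a growth factor receptor of fibroblasts, Fn1, which encodes fibronectin, and Dpt, which encodes dermatopontin. In the tumor samples, Dclk1- first, Pdgfra stood at 57.6 and 53.0, Fn1 at 46.7 and 54.5, Dcn at 43.6 and 6.35, and Dpt at 9.52 and 16.9. The opposite pattern, both normal arrays and neither tumor array, was shown by 1 gene of the list and by 2.50% of all genes. Other matrix genes, Postn, Lox, Loxl1, Pcolce, Col4a2 and Thbs1, were not well above background on any array, 6 of 32, against 17.8% of all genes.

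The endothelial list held 24 genes, all with a probe. Its summed level was 489 (Dclk1-) and 437 (Dclk1+) in tumor and 162.3 (Dclk1-) and 306 (Dclk1+) in normal cells. The member Flt1 alone made up 38.4% (Dclk1-) and 32.1% (Dclk1+) of the tumor sums. Plvap made up 26.5% of the sum in Dclk1+ normal cells. In Dclk1- cells 3 of 16 genes were at least 2-fold higher in tumor and 0 lower (median 0.07), against 5.83% and 5.24% of all genes: Flt1, Sox17, a transcription factor of endoderm and arterial endothelium (at least 2.18-fold; 78.0 in tumor), and Egfl7, a secreted protein of endothelium (1.09; 138.8 against 37.7). In Dclk1+ cells 1 of 20 was higher, Flt1, near the 4.27% of all genes, and 9 of the 20 lay below 0 (median 0.02). The tumor pair held 0 of 20 genes 2-fold apart and the normal pair 0 of 16, against 3.89% and 11.6% of all genes. As the offset pulls dim signals together, a count of 0 says little for the dim genes of this list. In the normal pair Plvap stood at 81.2 (Dclk1+) and 8.88 (Dclk1-), a log2 difference of 0.89. Esam stood at 39.9 (Dclk1+) and 3.60 (Dclk1-) there, a difference of 0.54, while 5 of the 16 genes lay below 0. Other genes of the list were dimmer in tumor by under 2-fold in Dclk1+ cells, in Dclk1- cells or in both. A pair of them is given here after its values were seen. Kdr, a further receptor for vascular endothelial growth factor, stood at 10.4 (Dclk1-) and 7.87 (Dclk1+) in tumor and 35.3 (Dclk1-) and 29.9 (Dclk1+) in normal cells, with log2 differences of -0.33 in Dclk1- and -0.31 in Dclk1+ cells. Plvap, a protein of fenestrated endothelium, was lower in Dclk1+ tumor than in Dclk1+ normal cells (-0.67; 21.1 against 81.2). In Dclk1- cells it was slightly higher in tumor (0.10; 11.5 against 8.88), so that it was bright on the Dclk1+ normal array alone. Cdh5, the endothelial cadherin, Ramp2 and Pecam1 were not well above background on any array.

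The smooth muscle list held 16 genes with a probe. In Dclk1- cells 1 of 11 was at least 2-fold higher in tumor, Acta2 (against 5.83% of all genes), and 2 were lower (against 5.24%), the actin-binding protein filamin A (Flna, -1.83; 162.4 against 828) and tropomyosin 1 (Tpm1, -1.01; 3788 against 8897). In Dclk1+ cells 1 of 12 was higher, Acta2, and 1 lower, Tpm1 (-1.30; 3361 against 10407), against 4.27% and 4.2% of all genes. Flna was lower in Dclk1+ than in Dclk1- cells in tumor (-1.29) and in normal (-3.24; 28.6 against 828). It was the single gene 2-fold apart of 12 and of 11, against 3.89% and 11.6% of all genes. Flna and Tpm1 are cytoskeletal genes that epithelial cells use as well, and Tpm1 made up between 89.5% and 98.0% of the summed level of this list. The markers of contractile muscle Cnn1, Des and Cald1 were, like Tagln, not well above background on any array. The pericyte list of 6 genes held none at least 2-fold apart in any of the 4 comparisons, against 3.89% to 11.6% of all genes. With only 4 or 5 of its genes compared each time, and dim signals pulled together by the offset, such a count says little. Notch3, named after its values were seen, stood at 77.1 (Dclk1+) and 4.65 (Dclk1-) in normal cells, a log2 difference of 0.93. In Dclk1+ tumor cells it stood at 14.6, a difference of -0.73 from Dclk1+ normal cells. Of the 4 genes compared each time, 2 lay below 0 between the normal samples and 1 lay above 0 between the Dclk1+ samples. The summed level of the pericyte list was 76.2 (Dclk1-) and 84.7 (Dclk1+) in tumor and 75.3 (Dclk1-) and 175.9 (Dclk1+) in normal cells.

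Some markers of blood cells, not all, were higher in Dclk1- tumor than in Dclk1- normal cells, as were Vim, Acta2 and Flt1. Of the 11 myeloid and leukocyte genes with a probe, 9 were above background on each array, and Adgre1 and Itgam on none. Their summed level was 3583 (Dclk1-) and 1505 (Dclk1+) in tumor and 581 (Dclk1-) and 1672 (Dclk1+) in normal cells. In Dclk1- cells 5 of 9 were at least 2-fold higher in tumor and 0 lower (median 1.00), against 5.83% and 5.24% of all genes, among them the complement genes C1qb (2.94) and C1qa (2.22), the Fc receptor chain Fcer1g (2.76) and the adaptor Tyrobp (1.18). The macrophage receptor gene Csf1r (-0.21; 34.4 against 58.2) and the macrophage lysosomal gene Cd68 (0.02; 26.9 against 31.8), given here after their values were seen, were not higher by 2-fold. In Dclk1+ cells 1 of 9 was higher, the lipopolysaccharide co-receptor Cd14 (1.30; 112.6 against 5.88), and 0 were lower, against 4.27% and 4.2% of all genes. Between the tumor samples 3 of 9 were lower in Dclk1+ cells, Fcer1g (-1.88), C1qa (-1.71) and C1qb (-1.43), and 0 higher, against 2.13% and 1.76% of all genes. Ptprc, the gene of the general leukocyte marker CD45, lay on the other side of 0 there, under 2-fold (0.68; 70.5 against 14.8). Between the normal samples 2 of 9 were higher in Dclk1+ cells, Ptprc (1.55) and C1qb (1.32), and 0 lower, against 5.66% and 5.92% of all genes. Ptprc was thus brighter in the Dclk1+ cells of both tissues (168.5 against 6.13 in normal). Which cells of the sorts carried it was not tested. Vim is carried by leukocytes too, and the part of myeloid cells in its level was not tested.

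Epithelial markers checked the labelled tissue. All 7 epithelial genes with a probe were above background on all 4 arrays, and their summed level was 9586 (Dclk1-) and 14495 (Dclk1+) in tumor and 36736 (Dclk1-) and 46759 (Dclk1+) in normal cells. In Dclk1- cells 4 of 7 were at least 2-fold lower in tumor and 0 higher (median -1.33), against 5.24% and 5.83% of all genes, led by Vil1, a brush border actin bundler (-2.64), and Cldn7, a claudin (-1.61). In Dclk1+ cells 3 of 7 were lower and 0 higher (median -0.98), against 4.2% and 4.27% of all genes, among them Vil1 (-1.92) and the epithelial adhesion gene Epcam (-1.08). The drop was not uniform. The cadherin gene Cdh1 was at -0.03 in Dclk1+ and -0.37 in Dclk1- cells, and the dim keratin gene Krt19 was at 0.09 and 0.06. Between Dclk1+ and Dclk1- cells 0 of 7 were 2-fold apart in tumor or in normal, against 3.89% and 11.6% of all genes. There 5 of 7 lay below 0 in tumor (median -0.03) and 6 of 7 in normal (median -0.34), although the summed level was higher in the Dclk1+ cells of both tissues. In that sum Cldn7 alone made up between 51.8% and 66.5%. The tumor arrays thus had higher summed fibroblast and matrix levels and lower summed epithelial levels than the normal arrays. The smooth muscle sum, almost all Tpm1, was higher on the normal arrays. The pericyte sum was highest in Dclk1+ normal cells, where Pdgfrb stood at 88.5 and Notch3 at 77.1. The part of the epithelial share in the stromal levels was not tested.

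**Figure D4:**
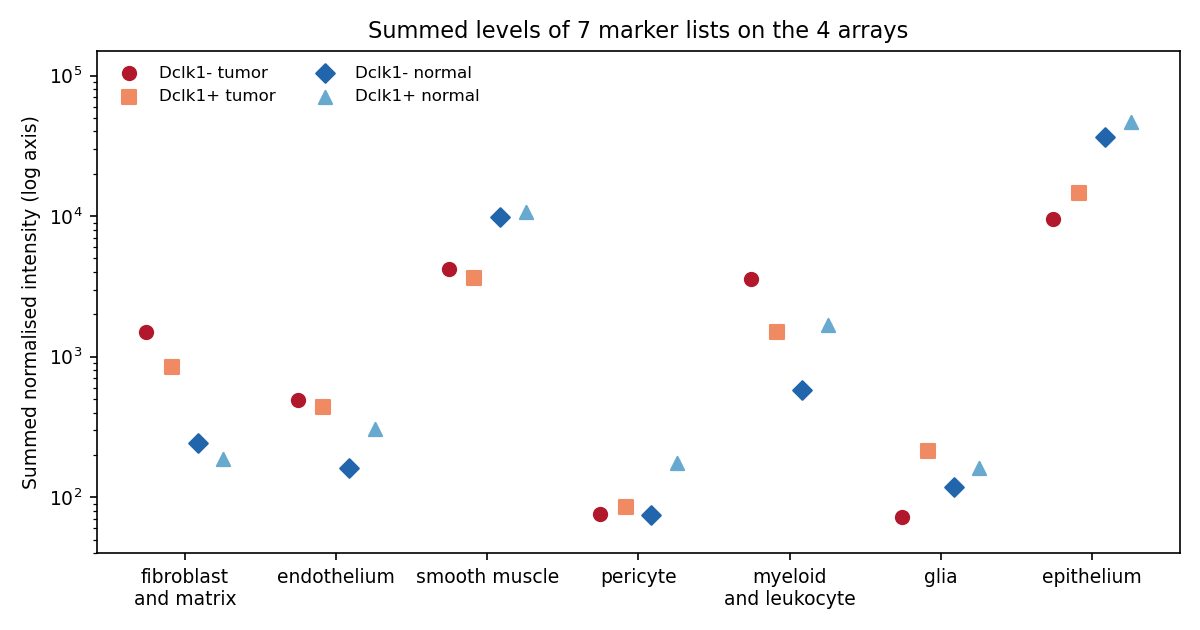
Summed normalised intensity (authors' table, log axis, probes not listed counted as 0) of 7 marker lists, 1 point per array. The fibroblast and matrix list is highest in Dclk1- tumor (1488) and lowest in Dclk1+ normal (186.5), and the epithelial list, mostly Cldn7, is lower on both tumor arrays (9586 and 14495) than on both normal arrays (36736 and 46759). The smooth muscle sum is almost all Tpm1.

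Genes whose profile over the 4 arrays lay nearest to a member were sought among the genes outside the lists, for the 3 members whose log2 level spanned at least 1. The measure was the Euclidean distance between centred log2 profiles over 4 arrays, where many genes lie close by. Nearest to Vim (span 2.50) were Chil3, a chitinase-like protein of macrophages (distance 0.09), the neutrophil chemokine Cxcl2 (0.17) and the proline synthesis enzyme Pycr1 (0.17). Nearest to Acta2 (span 2.03) were Aif1l (0.12), the frizzled receptor Fzd6 (0.15) and S100a8, a calcium-binding protein of neutrophils (0.21). S100a8 (0.17) and Aif1l (0.18) were also nearest to Flt1 (span 1.83), followed by the laminin chain Lamc1 (0.20). Chil3, for example, stood at 245 in Dclk1- tumor and 61.7 in Dclk1+ tumor and was not listed on the normal arrays, and S100a8 stood at 418 (Dclk1-) and 295 (Dclk1+) in tumor and 71.9 (Dclk1-) and 104.6 (Dclk1+) in normal cells.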

How the data were processed

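The spot and local background intensity of each array were taken from the scanner files, which per the file headers hold linear medians merged over scans of different gain. The authors deposited a series table of normalised intensity with no scale stated. Set against the scanner values, its columns are linear in spot intensity, with a median of 25.0, brighter spots higher and dim probes empty. No software or build is stated in the sources used here.

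Spot intensities were background-corrected by limma's normexp (limma 3.58.1, R 4.3.3, offset 50), control and flagged spots were dropped, and the 4 arrays were quantile normalized on the log2 scale. The functions were tested on simulated data. Probes were named from the platform table, brought to RefSeq (GRCm38.p6) symbols: 16631 of 23473 probes had 1 symbol. A gene with several probes was represented by the probe brightest on average. A bound ("at least") is the brighter array's value over the higher of the dim array's dimmest probe above background and the gene's own value there. From the wider lists, up to 4 genes per list, comparison and direction were named, those 2-fold apart with the largest differences first. The members and lists were chosen with earlier results of these data known. Alternatives were an offset of 16, subtraction of the blank mean, median and 75th percentile scaling, the authors' values, other filters on dim probes, the mean of a gene's probes and, added after seeing the data, the local background in normexp. For the log2 differences of the authors' values, a probe not listed was set to the lowest value listed on its array.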

Additional observations from a re-analysis of the deposited data

How the results depend on the processing

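Of 72 alternative values for the members' medians and counts, 58 stayed close to those reported. Close means by less than the SD between probes of a gene (0.39 to 0.79 on the log2 scale), or within 1.5 times for a count. The margin is wide. For tumor against normal in Dclk1- cells the reported median was 0.81. Values of 0.24 with the local background and 1.42 with an offset of 16 count as close to it. Among single genes, no called difference of Vim, Acta2 or Flt1 changed sign. With the blank mean subtracted, the median and the number of members 2-fold apart were -0.89 and 4 (1 of them higher) between the tumor samples, 1.03 and 4 for tumor against normal in Dclk1+ cells, and 2.89 and 7 (1 of them lower, Col1a1 at -1.04) in Dclk1- cells, and 2 members were 2-fold apart between the normal samples. With the authors' values the median was 0.69 in Dclk1+ and 2.40 in Dclk1- cells for tumor against normal, where 5 members were 2-fold apart in Dclk1- cells. By the same values 2 members were 2-fold apart between the tumor samples and 1 between the normal samples. With an offset of 16, 2 were 2-fold apart between the tumor samples, and with the local background in normexp 1 for tumor against normal in Dclk1+ cells. The smaller offset and the subtraction raise differences of dim genes by construction, also over all genes: with the blank mean subtracted, 20.3% of all genes were 2-fold higher and 21.8% lower for tumor against normal in Dclk1- cells. No member has more than 1 probe, so that the choice of probe could not change its value. The values from the mean of a gene's probes, counted among the 58, are therefore the reported ones again. Tagln and Pecam1 were near the blank spots on all 4 arrays, so that no difference in either gene could be measured. No array could be left out, because each group holds 1. No paired analysis was possible because each group holds 1 array.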

Other observations

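Of 5 glial genes with a probe, 1 was bright in a single sample. S100b, a calcium-binding protein of enteric glia and other cells, stood at 147.7 in the Dclk1+ tumor sample, against 26.3 (Dclk1- tumor), 22.0 (Dclk1- normal) and 21.1 (Dclk1+ normal). It was 2-fold or more higher in Dclk1+ tumor cells than in Dclk1- tumor cells (1.09) and than in Dclk1+ normal cells (1.28). Gfap, the intermediate filament of astrocytes and glia, was not above background on any array, and Sox10, a transcription factor of glia, was dimmer in tumor by under 2-fold, with log2 differences of -0.38 in Dclk1+ and -0.48 in Dclk1- cells.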
